A study of Homo sapiens with 6 samples.

Results

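The genes described here were ATF3 and 9 further genes of the AP-1 group of transcription factors, namely FOS, FOSB, FOSL1, FOSL2, JUN, JUNB, JUND, MAFF and BATF3, which make up 10 of the 48162 genes in the deposited table. They were selected on measured values in that ATF3 was higher with si-CNN3#1 in each of the 3 same-numbered pairs of samples, and its relatives were then taken with it. The measure that selected them is therefore the comparison between the 2 groups itself, and the differences of the 10 genes are given as descriptions without p values. SiHa is an established human cervical cancer cell line that carries human papillomavirus 16. Cells received either si-CNN3#1, an siRNA directed at the transcript of calponin 3 (CNN3), which binds actin, or the control si-NC. The medium was replaced 24 h later per the labels, and RNA was collected 48 h after transfection from 3 independent assays in each group. A single cell line and a single siRNA against CNN3 were sequenced, so an effect of lower CNN3 and another effect of this siRNA cannot be told apart.

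AP-1 is a dimer of proteins with a basic region that contacts DNA and a leucine zipper that holds the dimer together (bZIP proteins). JUN, JUNB and JUND can pair with each other or with FOS, FOSB, FOSL1 and FOSL2, whereas the FOS proteins need a JUN partner, and the usual target is the TPA response element (TRE) or the related cAMP response element (CRE). ATF3 is a stress-induced member of the ATF group that binds CRE-like sites and often acts as a repressor, BATF3 lacks a transactivation domain, and MAFF is a small MAF protein that dimerizes with factors of the NRF2 and FOS groups. Many of these genes are immediate-early genes, transcribed within minutes of growth factor or stress signals through MAP kinases. In keratinocytes and cervical cancer cells AP-1 is also known as an activator of the papillomavirus long control region.

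Counts on genes added up to between 18147028 and 19026341 per sample with si-CNN3#1 and between 20287139 and 24976517 with si-NC, so every control sample was the deeper one, and counts were compared as CPM (read counts scaled to a common library total after TMM normalization). For CNN3, the target, counts were 490, 514 and 574 in the si-CNN3#1 samples against 1134, 1288 and 1234 in the controls, with no overlap between the groups. Scaled for depth, the level was 28.1 ± 2.95 against 55.2 ± 2.97 CPM (SD, n = 3 each), so 50.9% of the control level remained. Of the 10 genes listed as epithelial markers, KRT7, KRT8, KRT17 and CDKN2A had 3894 counts or more in every sample. KRT18 had 2360 or more. CDKN2A is in the list although it does not mark epithelial cells as such. CDH1 had 671 to 916, EPCAM 106 to 145, KRT19 85 to 130, TP63 59 to 96 and KRT5 only 4 to 11. Their summed level was 1687 to 1762 CPM with si-CNN3#1 and 1730 to 1791 with si-NC. Of the 9 tested, TP63 and KRT17 were called higher (log2 fold changes of 0.68 and 0.23) and KRT8 and KRT18 lower (-0.19 and -0.18). The part of these differences in the results was not tested. Of the other markers, the 6 of fibroblasts added up to between 11.3 and 13.0 CPM and the 3 endothelial ones found to at most 0.729 CPM. The 5 leukocyte markers added up to between 120 and 128 CPM with si-CNN3#1 and between 145 and 156 CPM with si-NC, nearly all of it CD14 with 2190 to 3517 counts, while PTPRC, which marks leukocytes in general, had 6 to 18 counts, and KDR, an endothelial receptor, had a single count over all 6 samples. The part of the CD14 difference in the results was not tested. In bulk RNA, fewer cells that transcribe a gene and less RNA per cell cannot be told apart.

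Promoter windows were available for 8 of the 10 genes in the RefSeq table on GRCh38.p14, from 250 bases before to 50 bases after each start, with 2 windows each for ATF3 and MAFF and none for FOSL1 and BATF3. Those of ATF3 lie at chr1:212565157-212565456 and chr1:212614768-212615067, and any other start of that gene was not searched. The CRE, TGACGTCA, was found in the windows of JUND and MAFF, or 2 of 10 windows, against 1.85% of 35116 windows of the same length over all genes. Its first 6 letters, TGACGT, which are part of the full CRE and were searched on both strands like every other word here, were found in 5 of 10 windows (FOS, FOSB, FOSL2, JUND and MAFF) against 7.98% of all windows. The word TGACATCA, which was added after the sequences had been seen, was found in the first window of ATF3 and in that of JUN, and in 2.61% of all windows. The TRE, TGACTCA, was found only at position 4 of FOSL2 (4.95% of all windows), where 0 is the start and negative positions lie before it. The EGR1 word GCGGGGGCG (5.07% of all windows), the ATF4 word TGATGCAAT (0.236%) and the CArG box bound by SRF (1.29%) were found in none of the 10. These are matches of letters, and the counts do not show which start site was used. Bases farther than 250 before a start were not searched, so a word absent from these windows may still lie farther upstream. Stretches of 60 bases are shown for the 2 genes with the largest increases, the 2 genes with the full CRE and FOS, each 5′ to 3′ on the strand of the gene with the matched word in capitals. They lie at chr1:212565258-212565317 on the plus strand (ATF3, match at position -123), chr1:58784081-58784140 on the minus strand (JUN, -67), chr22:38201914-38201973 on the plus strand (MAFF, -54), chr19:18281789-18281848 on the minus strand (JUND, -200) and chr14:75278738-75278797 on the plus strand (FOS, -64).
ATF3: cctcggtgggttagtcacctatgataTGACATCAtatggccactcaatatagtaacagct
JUN: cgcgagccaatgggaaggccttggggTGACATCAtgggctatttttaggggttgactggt
MAFF: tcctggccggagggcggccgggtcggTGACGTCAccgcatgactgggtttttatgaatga
JUND: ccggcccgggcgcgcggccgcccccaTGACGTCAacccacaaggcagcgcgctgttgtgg
FOS: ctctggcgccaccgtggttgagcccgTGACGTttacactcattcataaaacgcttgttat

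ATF3 (ENSG00000162772) spans bases 212565334 to 212620777 of chromosome 1 (GRCh38, plus strand). The si-CNN3#1 samples gave 283, 263 and 252 reads on it and the si-NC samples 101, 157 and 116, or 15.01, 13.7 and 13.8 CPM against 5.03, 6.31 and 5.38 CPM. Every si-CNN3#1 sample lay above every control sample by more than the spread within either group. The group means were 14.2 ± 0.730 and 5.57 ± 0.659 CPM (SD, n = 3 each), a level of 254% of the control and a log2 fold change of 1.33 (SE, the standard error, 0.10). On the log2 scale the same-numbered samples differed by 1.58, 1.12 and 1.36, which is the measure that selected the gene, and 22.4% of the 15860 genes tested were likewise higher in each of the 3 pairs. Of the 978 genes with an adjusted p of 0.05 or less and a higher level with si-CNN3#1, 23 had a larger fold change than ATF3. The log2 fold change lay between 1.27 and 1.44 when each sample was left out in turn. Among the relatives, FOSL1 met the same pair criterion with the smallest margin, at a lowest pair difference of 0.03 on the log2 scale, and FOSB, higher in 2 of the 3 pairs, did not meet it because of a difference of -0.23 in the second.

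**Figure D1:**
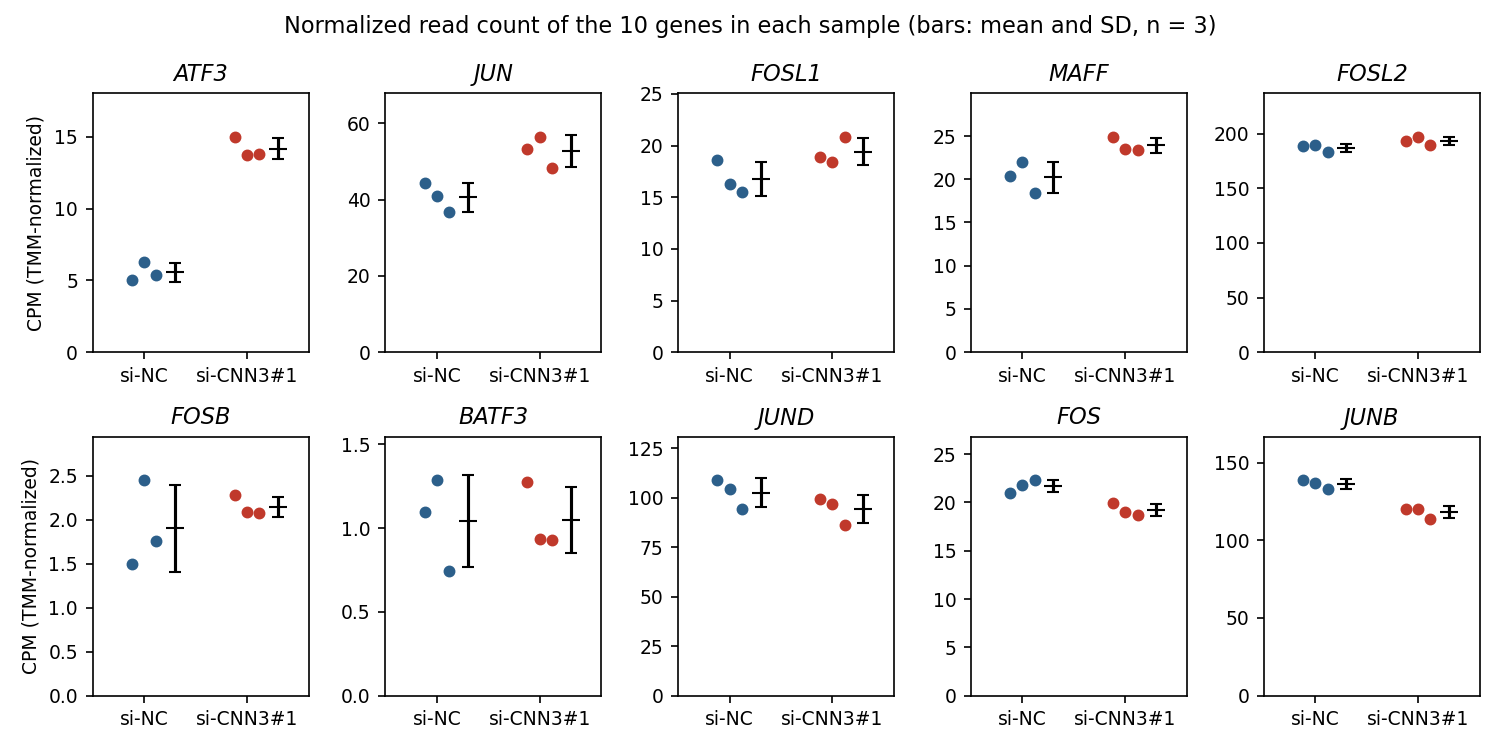
TMM-normalized read count (CPM, linear axis from 0) of the 10 genes in each of the 3 si-NC samples (blue) and 3 si-CNN3#1 samples (red), in the order of their replicate numbers, with the mean and SD as black bars. ATF3 sits at 13.7 CPM or more in every si-CNN3#1 sample and at 6.31 CPM or less in every control sample. The other panels show smaller relative shifts, the largest in JUN at 130% of the control mean.

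The JUN genes differed in opposite directions. JUN itself, the founding member and the main partner of the FOS proteins, is an intronless gene on the minus strand of chromosome 1 from 58780788 to 58784327. It had 53.4, 56.5 and 48.3 CPM with si-CNN3#1 and 44.2, 40.9 and 36.7 CPM with si-NC. All 3 si-CNN3#1 samples were above all 3 controls, with means of 52.7 ± 4.13 and 40.6 ± 3.78 CPM (SD, n = 3 each) and a log2 fold change of 0.38 (SE 0.05). JUNB, a weaker activator than JUN that can oppose it, is intronless too and lies on the plus strand of chromosome 19 from 12791496 to 12793315. It had 120.3, 120.0 and 113 CPM with si-CNN3#1 and 139, 137 and 133 CPM with si-NC. Here all 3 si-CNN3#1 samples were below the controls, with means of 118 ± 3.87 and 136 ± 3.08 CPM (SD, n = 3 each) and a log2 fold change of -0.21 (SE 0.03). Exons of JUNB overlap those of HOOK2 on the other strand, and whether counting used strand is not given in the sources used here. HOOK2, with 812 to 1098 counts, had a log2 fold change of 0.04 (SE 0.05 and adjusted p = 0.715 by the quasi-likelihood test of edgeR), and whether its reads enter the count of JUNB was not tested. JUND, the most constant JUN gene in resting cells, on the minus strand of chromosome 19 from 18279760 to 18281622, had 99.3, 96.9 and 86.2 CPM with si-CNN3#1 and 109, 104 and 94.3 CPM with si-NC. These ranges overlapped, although JUND was lower in each same-numbered pair, and the log2 fold change was -0.12 (SE 0.04). Without si-CNN3 replicate 3 it was -0.06, and without si-NC replicate 1 it was -0.08.

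The FOS genes did not differ in a single direction either. FOS, the prototype immediate-early gene, on the plus strand of chromosome 14 from 75278774 to 75282230, had 19.9, 19.0 and 18.7 CPM with si-CNN3#1 and 21.0, 21.8 and 22.3 CPM with si-NC. The groups did not overlap, and the log2 fold change was -0.17 (SE 0.06). FOSL1 (FRA-1), whose product is associated with invasive carcinoma cells, on the minus strand of chromosome 11 from 65892049 to 65900573, had 18.9, 18.4 and 20.9 CPM with si-CNN3#1 and 18.6, 16.3 and 15.5 CPM with si-NC. Its highest control sample exceeded its lowest si-CNN3#1 sample, and the log2 fold change of 0.21 (SE 0.07) ran from 0.16 to 0.29 with each sample left out. FOSL2 (FRA-2), on the plus strand of chromosome 2 from 28392448 to 28417312, had the most counts of the 10 genes, 3465 to 4723 per sample. It stood at 193 ± 3.83 CPM with si-CNN3#1 and 187 ± 3.56 CPM with si-NC (SD, n = 3 each), a log2 fold change of 0.05 (SE 0.03). The lowest si-CNN3#1 sample, at 189.8 CPM, was barely above the highest control at 189.7 CPM. FOSB, on the plus strand of chromosome 19 from 45467995 to 45475179, had only 30 to 61 counts per sample and a log2 fold change of 0.15 (SE 0.20), so a difference of that size was not detectable at this depth.

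The members outside the JUN and FOS genes differed between themselves. MAFF, on the plus strand of chromosome 22 from 38200767 to 38216511, had 24.9, 23.5 and 23.4 CPM with si-CNN3#1 and 20.3, 21.98 and 18.4 CPM with si-NC. All si-CNN3#1 samples were above the controls, and the log2 fold change was 0.24 (SE 0.07), or 0.17 without si-NC replicate 3. BATF3, on the minus strand of chromosome 1 from 212686418 to 212699985, is separated from ATF3 by 65640 bases. Its reads numbered 24, 18 and 17 with si-CNN3#1 and 22, 32 and 16 with si-NC, with overlapping ranges and a log2 fold change of -0.0039 (SE 0.28). The neighbour of ATF3 thus showed no difference that these low counts could resolve.

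In the fit over all genes, 6 of the 10 genes had an adjusted p of 0.05 or less (quasi-likelihood test of edgeR, Benjamini-Hochberg), beside 13.3% of all 15860 genes tested. They were ATF3, JUN, FOSL1 and MAFF on the higher side, where 6.17% of all genes were called, and JUNB and JUND on the lower side, where 7.14% were. In 6 of the 10 genes (ATF3, JUN, MAFF and FOSL2 above, JUNB and FOS below) the groups did not overlap, beside 28.2% of all genes tested. Since the genes were selected on this comparison, nothing is read from these counts. The median log2 fold change of the 9 genes other than ATF3 was 0.05, beside 0.0023 over all genes tested. The number called was between 4 and 6 when 1 sample was left out, and it was 3 with DESeq2. It was 4 of 8 tested with limma on log2 FPKM with a filter on low values, and 2 of 10 with limma without that filter, where JUN lost its call too. FOSL1 lost its call without si-CNN3 replicate 1, si-CNN3 replicate 3, si-NC replicate 2 or si-NC replicate 3, and JUND without si-CNN3 replicate 3, si-NC replicate 1 or si-NC replicate 2. MAFF lost it without si-CNN3 replicate 1 (log2 fold change 0.21) or si-NC replicate 3. ATF3, JUN and JUNB kept theirs in these 6 fits. As the genes were selected on this comparison, nothing is read from kept or lost calls either.

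**Figure D2:**
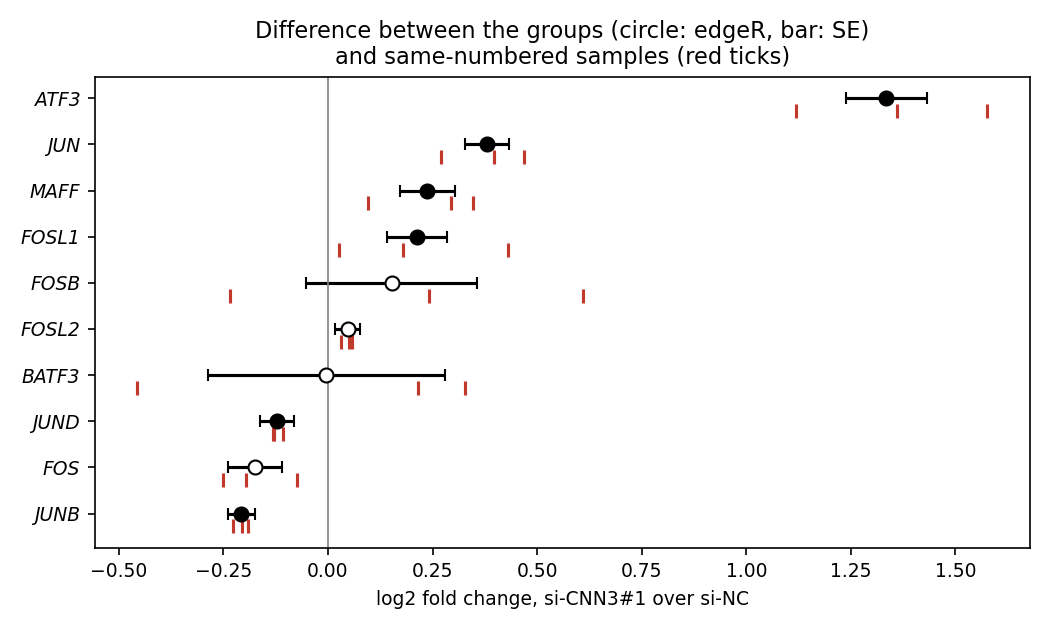
Log2 fold change of si-CNN3#1 over si-NC for the 10 genes (circles, with the standard error as black bars), filled where the adjusted p in edgeR was 0.05 or less, with the log2 ratios of the 3 same-numbered pairs as red ticks. ATF3 stands at 1.33 with pairs from 1.12 to 1.58, the next gene, JUN, stands at 0.38, and the lowest, JUNB, at -0.21.

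Levels of different genes can be compared only per length, for which the deposited FPKM values were used. With si-NC, JUND was highest at 85.9 ± 6.17 FPKM, followed by JUNB at 74.5 ± 1.65 and FOSL2 at 62.8 ± 1.27 FPKM (SD, n = 3 each), with no overlap between neighbours. FOS followed at 21.5 ± 0.702 FPKM, then FOSL1 at 13.9 ± 1.30, JUN at 12.1 ± 1.11 and MAFF at 10.7 ± 0.973 FPKM (SD, n = 3 each), and in these last 3 the ranges of neighbours overlapped. ATF3 was at 4.54 ± 0.554 FPKM, below all of these, and BATF3 and FOSB, which overlapped, were lowest at 0.787 ± 0.210 and 0.718 ± 0.189 FPKM (SD, n = 3 each). With si-CNN3#1, ATF3 reached 11.7 ± 0.536 FPKM (SD, n = 3), still below MAFF at 12.9 ± 0.395 FPKM (SD, n = 3), and JUNB and FOSL2 overlapped. The length behind each FPKM value matters for this order. It is 1001 bases for FOS and 1219 bases for ATF3, where all GENCODE exons cover 3238 and 4040 bases. With the GENCODE exon lengths, an alternative added after the data were seen, JUNB stood above JUND, FOS fell from place 4 to place 6 below JUN and FOSL1, and ATF3 kept place 8 at 1.37 FPKM with si-NC and 3.52 FPKM with si-CNN3#1.

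Taken as a share of the FPKM of the 3 JUN genes in the same sample, JUN made up 9.67%, 10.3% and 9.71% with si-CNN3#1 and 7.33%, 6.99% and 6.74% with si-NC. The means were 9.90% ± 0.363 and 7.02% ± 0.296 (SD, n = 3 each), and the ranges were apart. The share of JUNB was 40.6% ± 1.01 against 43.2% ± 1.31 (SD, n = 3 each), also apart, and that of JUND, at 49.5% ± 0.942 against 49.8% ± 1.03 (SD, n = 3 each), overlapped. Among the 4 FOS genes FOSL2 was the main transcript per length, with 64.4% ± 1.04 of their FPKM with si-CNN3#1 and 63.5% ± 0.339 with si-NC (SD, n = 3 each), ranges that overlapped. FOS made up 18.9% ± 0.572 against 21.8% ± 1.00 and FOSL1 15.9% ± 1.13 against 14.0% ± 1.17 (SD, n = 3 each), the first apart and the second overlapping. With the GENCODE exon lengths JUN took 11.4% against 8.10% of its family, JUNB 49.8% against 53.0% and FOS 13.6% against 15.9%, and these 3 pairs of ranges were still apart in the same direction.

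**Figure D3:**
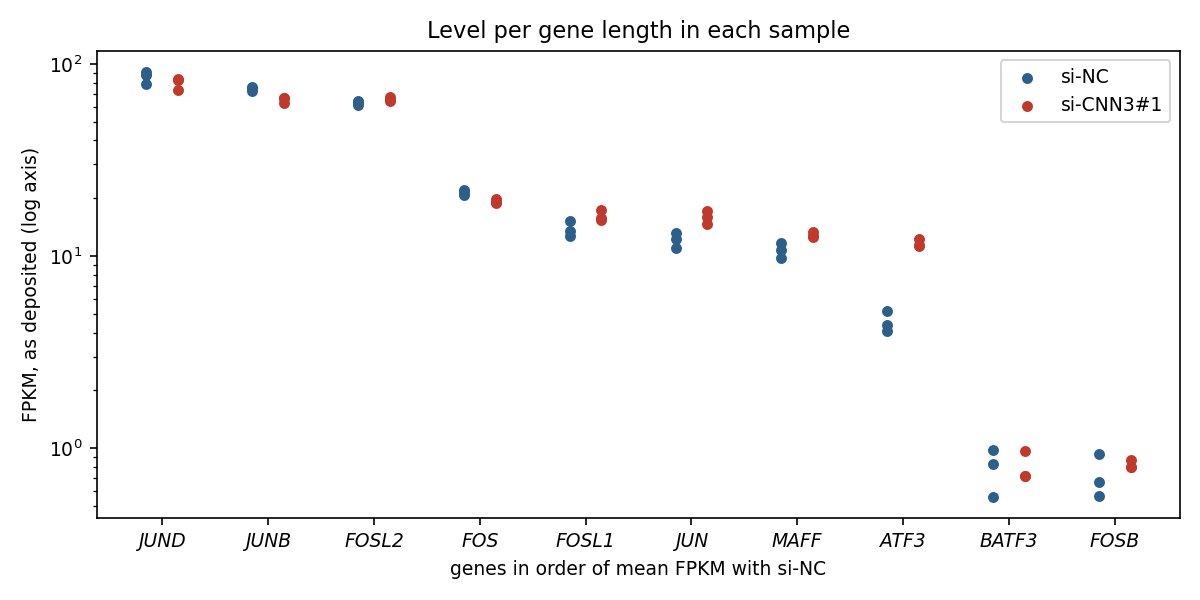
Deposited FPKM (log axis) of the 10 genes in each si-NC sample (blue) and si-CNN3#1 sample (red), in order of the mean with si-NC. JUND, JUNB and FOSL2 lie between 61.4 and 90.8 FPKM in the control samples, ATF3 lies between 4.08 and 5.16 FPKM with si-NC and between 11.3 and 12.3 FPKM with si-CNN3#1, and FOSB and BATF3 stay under 1 FPKM.

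The genes whose profile over the 6 samples was most like that of ATF3 were sought among 9795 genes with a mean of at least 10 CPM, by Pearson correlation of log2 CPM. The closest was ENSG00000117289, which the naming table leaves without a symbol (r = 0.999), followed by ELOVL6, which elongates fatty acids, the prolyl isomerase FKBP3, the ubiquitin-conjugating enzyme UBE2E1 and GADD45GIP1 (each r = 0.998). All 5 share the step between the groups with ATF3, and their log2 fold changes, from 0.15 to 0.29, were far below its own. With 6 samples in 2 groups such a likeness is a description of these libraries.

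Around these genes, 35 of 43 genes listed as other bZIP factors were tested, of which 6 rose, 6 fell and 23 did not pass the threshold. That is 34.3% called beside 13.3% of all genes tested, with a median log2 fold change of -0.03. The list includes CEBPZ, which despite its symbol is not a bZIP protein. This list and those that follow were drawn up with earlier results of these data known, so the shares called are no independent evidence. CREB5, a CRE-binding partner of JUN, rose most (log2 fold change 1.59, SE 0.38 and adjusted p = 0.00204 by the quasi-likelihood test of edgeR), on 13 to 22 counts with si-CNN3#1 and 5 to 10 with si-NC. DDIT3 (CHOP), which dimerizes with ATF3 and C/EBP proteins in stressed cells, rose by 0.43 (SE 0.13 and adjusted p = 0.0172, same test), and CEBPG by 0.22 (SE 0.04 and adjusted p = 4.49e-05, same test). NFE2, CREB3L2 and CEBPZ fell, with log2 fold changes of -0.58, -0.31 and -0.13. ATF4, which induces ATF3 in the integrated stress response, stood at 337 ± 14.0 CPM with si-CNN3#1 and 338 ± 10.0 CPM with si-NC (SD, n = 3 each; log2 fold change -0.0035, SE 0.03 and adjusted p = 0.960). JDP2, the closest relative of ATF3, had a log2 fold change of 0.05 (SE 0.06 and adjusted p = 0.679, same test), and the small MAF genes MAFG and MAFK had 0.06 and 0.10 (adjusted p = 0.479 and 0.348). BATF was at 0 counts in all 6 samples, which allows up to 3 counts per sample. DDIT3 lost its call without si-CNN3 replicate 1 or 2 or si-NC replicate 2 or 3 (adjusted p up to 0.126), NFE2 without si-CNN3 replicate 2 or 3 or si-NC replicate 3 (up to 0.115), and CEBPZ without any 1 sample other than si-NC replicate 1 (up to 0.171). The list count was 5 without si-NC replicate 3, 7 without si-CNN3 replicate 1 or 2, and at most 10 in these fits.

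Of the 39 genes that carry signals to AP-1 (RAS and RAF genes, the MAP kinase tiers, ribosomal S6 kinases, SRF and its ELK and MRTF partners), all were tested and 2 rose, 3 fell and 34 did not pass, or 12.8% called, which is near the 13.3% of all genes tested, with a median of -0.02. ELK3 and ELK4, ternary complex factors that sit with SRF on the FOS promoter, fell by 0.34 (SE 0.05 and adjusted p = 1.98e-07) and by 0.21 (SE 0.03 and adjusted p = 5.02e-06, quasi-likelihood test of edgeR). MAP2K1 (MEK1), a kinase that activates ERK, fell by 0.27 (SE 0.04 and adjusted p = 1.89e-07), while its relative MAP2K2 had a log2 fold change of 0.10 (SE 0.03 and adjusted p = 0.0120) and HRAS one of 0.14 (SE 0.05 and adjusted p = 0.0248, same test). SRF had 0.11 (SE 0.04 and adjusted p = 0.0667) and did not pass, although it passed without si-CNN3 replicate 3 (adjusted p = 0.0177), within a range of 0.0177 to 0.383 over its alternatives. MAP2K2 lost its call without si-CNN3 replicate 1 (adjusted p = 0.0744), si-NC replicate 1 or si-NC replicate 3, HRAS without si-CNN3 replicate 2, si-CNN3 replicate 3, si-NC replicate 2 or si-NC replicate 3 (up to 0.106). The list count was 3 without si-NC replicate 3, all of them lower.

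The feedback inhibitors of MAP kinase signalling gave 4 higher and 1 lower call among 17 genes, all tested, or 29.4% called beside 13.3% of all genes tested, with a median of 0.10. DUSP1, a nuclear phosphatase that switches off p38 and JNK, had 54.7, 50.6 and 53.3 CPM with si-CNN3#1 and 71.6, 74.6 and 72.1 CPM with si-NC. It fell by 0.46 on the log2 scale (SE 0.04 and adjusted p = 5.40e-13 by the quasi-likelihood test of edgeR), with all si-CNN3#1 samples below the controls. DUSP4, another nuclear MAP kinase phosphatase, had 18.1 to 21.9 CPM against 12.9 to 14.0 CPM and rose by 0.56 (SE 0.07 and adjusted p = 4.26e-08, same test). DUSP8 rose by 0.49 and SPRY2, an inhibitor of receptor signalling to RAS, by 0.39 (adjusted p = 0.000190 and 0.00879). DUSP6, the cytoplasmic ERK phosphatase and itself an ERK target, had 6.16 ± 1.24 against 5.24 ± 0.305 CPM (SD, n = 3 each; adjusted p = 0.254, range 0.0518 to 0.753 over its alternatives). SPRY2 lost its call without si-CNN3 replicate 3 (adjusted p = 0.0650) or si-NC replicate 2 (adjusted p = 0.0844). The list count was 3 without si-NC replicate 2.

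Of 34 other immediate-early and early response genes, 32 were tested and 11 rose, 6 fell and 15 did not pass, or 53.1% called beside 13.3% of all genes tested, with a median log2 fold change of 0.04. The largest increases were in CCN2 (0.84, SE 0.22 and adjusted p = 0.00584), ARC (0.79, SE 0.26 and adjusted p = 0.0340) and the zinc finger factor KLF4 (0.77, SE 0.17 and adjusted p = 0.000807, quasi-likelihood test of edgeR), all on fewer than 100 counts per sample. The largest decreases were in the orphan nuclear receptor NR4A2 (-0.29), in MYC (-0.18) and in the antiproliferative gene BTG1 (-0.15), with standard errors of 0.06, 0.03 and 0.04. EGR1, which is induced with FOS through SRF, had 82.8 ± 6.25 against 84.5 ± 1.26 CPM (SD, n = 3 each; log2 fold change -0.03, SE 0.04 and adjusted p = 0.739), so FOS and EGR1 were not among the genes that rose. CCN2 lost its call without si-CNN3 replicate 3 (adjusted p = 0.0962), BTG1 without si-NC replicate 3 (adjusted p = 0.0708) and ARC without si-CNN3 replicate 1 or 2 or si-NC replicate 2 or 3 (up to 0.210).

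Textbook targets of AP-1 were partly silent in these cells. Of 28 genes, 12 were too low to test, among them VIM with 2 to 8 counts, the collagenase MMP1 with at most 3 and the keratinocyte differentiation genes IVL, SPRR1A and SPRR1B with 0 counts in every sample. Of the 16 tested, 7 rose, 2 fell and 7 did not pass, or 56.2% called beside 13.3% of all genes tested, with a median of 0.08. As the list was drawn up with earlier results of these data known, this share is no independent evidence. For CXCL8 (interleukin 8), a neutrophil chemokine, counts were 139, 164 and 131 in the si-CNN3#1 samples against 61, 74 and 59 in the controls, a log2 fold change of 1.40 (SE 0.13 and adjusted p = 1.88e-12 by the quasi-likelihood test of edgeR). IL6 had 21.7, 19.0 and 19.9 CPM against 11.5, 10.8 and 9.36 CPM (log2 fold change 0.94, SE 0.08 and adjusted p = 5.53e-14), and IL1A had 26 to 58 counts and a log2 fold change of 0.90 (SE 0.19 and adjusted p = 0.000573, same test). The groups did not overlap in any of these 3 cytokine genes. PLAUR, the urokinase receptor, and the metallothionein MT2A fell by 0.21 (SE 0.04 and adjusted p = 3.24e-05) and by 0.19 (SE 0.03 and adjusted p = 8.39e-08, same test).

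Among 18 genes of the stress pathways known to induce ATF3, all were tested and 8 rose, 3 fell and 7 did not pass, or 61.1% called beside 13.3% of all genes tested, with a median of 0.09. This list, too, was drawn up with the difference in ATF3 known and is no independent evidence of a direction. CHAC1, which degrades glutathione, had 8.17, 8.23 and 8.44 CPM with si-CNN3#1 and 4.34, 4.34 and 4.59 CPM with si-NC (log2 fold change 0.90, SE 0.11 and adjusted p = 1.54e-08 by the quasi-likelihood test of edgeR). GDF15 had a log2 fold change of 0.51 (SE 0.17 and adjusted p = 0.0392) and ASNS, asparagine synthetase, one of 0.43 (SE 0.04 and adjusted p = 1.13e-11, same test). DDIT4, an inhibitor of mTORC1, fell by 0.33, and the eIF2α kinase EIF2AK1 and the ER stress gene HERPUD1 by 0.11 each (adjusted p = 4.82e-14, 0.00434 and 0.0228). GDF15 lost its call without any of 5 single samples (all but si-CNN3 replicate 1, adjusted p up to 0.204), and HERPUD1 without si-CNN3 replicate 2 or any si-NC replicate (up to 0.0885).

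**Figure D4:**
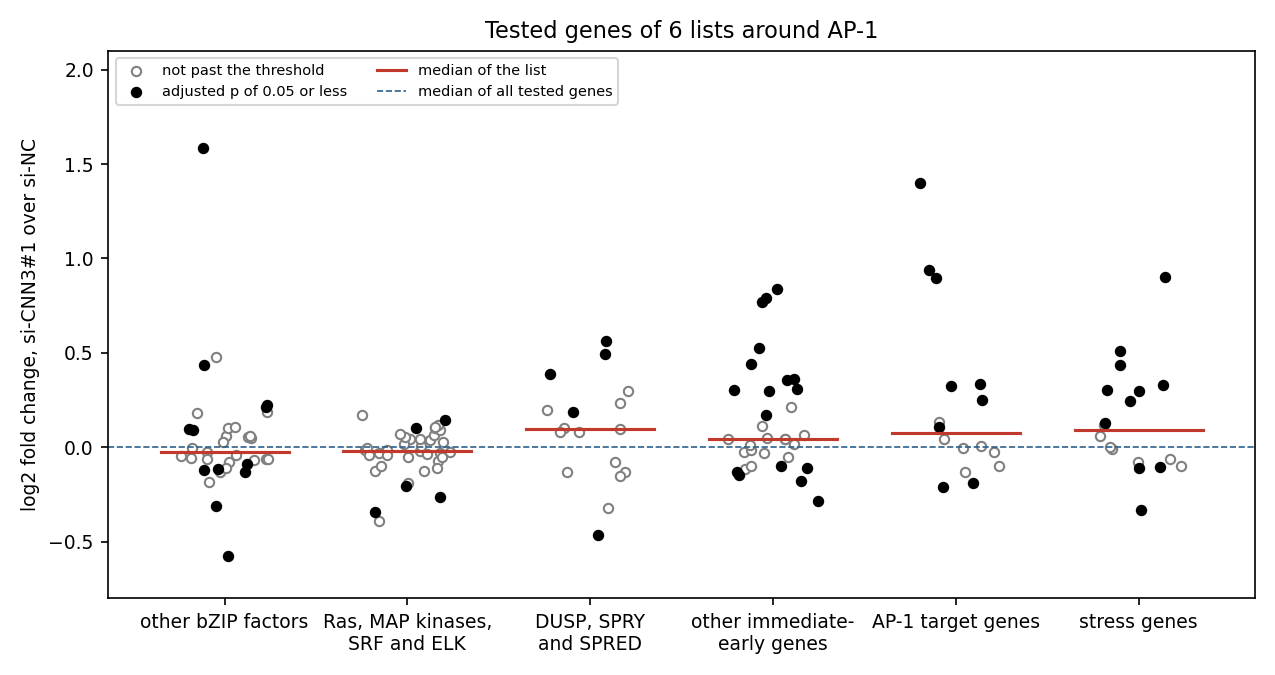
Log2 fold change of si-CNN3#1 over si-NC for the tested genes of the 6 lists (points spread sideways at random within a list), filled where the adjusted p by the quasi-likelihood test of edgeR was 0.05 or less, with the median of each list as a red line and that of all tested genes as a dashed line. The medians lie between -0.03 and 0.10, and the genes farthest from 0 are CREB5 at 1.59 and CXCL8 at 1.40.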

How the data were processed

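The libraries were made with an Illumina TruSeq RNA kit from 3 samples per group. Per the labels' processing notes the tools were TopHat2 2.0.9, Bowtie2 2.0.6, HTSeq and DESeq 1.10.1, and the genome build, annotation and strand setting are not given in the sources used here. The authors deposited raw read counts per Ensembl gene, and FPKM values that equal count divided by total and by 1 fixed length per gene. Symbols and positions came from a gene name table and GENCODE release 29 on GRCh38, which hold 45342 of the 48162 identifiers. Of 214 listed symbols, 213 were matched, all but PECAM1. Counts were fitted with edgeR 4.0.16 in R 4.3.3 (TMM, filterByExpr, glmQLFit, glmQLFTest) in a model that held only the condition, and p values were adjusted by Benjamini-Hochberg over 15860 genes, with a threshold of 0.05. The standard error is the absolute log2 fold change over the square root of F. P values set the difference between the groups against the spread between the 3 assays of a group. In edgeR that spread was a common biological coefficient of variation (relative SD beyond counting noise) of 0.0232, so small differences can have very low p values. Within a group, samples were not duplicates of each other, with a chi-square of 1.56 to 1.98 times its degrees of freedom. DESeq2 1.42.0, limma 3.58.1 on log2 FPKM with a pseudocount of 1 or 0.1, other normalizations and filters, a replicate block and leaving out each sample were alternatives. The edgeR, DESeq2 and limma fits were also run on simulated data. These were drawn with the same dispersion for every gene, so nothing about the fits to the real counts is read from them. Named list genes are up to 3 called genes per direction and list with the largest change, 10 regulators and partners whatever their values (such as ATF4 and EGR1), and the 5 genes most correlated with ATF3. The 10 genes and the lists were chosen with earlier results of these data known.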

Additional observations from a re-analysis of the deposited data

How the results depend on the processing

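Of 272 recomputed values, 246 stayed the same by these measures (a count within 1.5 times the reported one, a fold change within the SD between replicates) and 26 moved. Sign was checked only for the fold changes of the 6 called genes among the 10, and 0 changed it. A fold change that stayed the same could still lose its call. FOSL1 and JUND were not called in 9 of 16 alternatives each, MAFF in 4 and JUN in 1. JUND was not called with upper quartile normalization or with total counts only. The log2 fold change of ATF3 was 1.198 with limma on log2(FPKM + 1), with or without a filter on low values, a scale that understates low genes, and 1.27 to 1.44 with each sample left out. The count over all genes, 2111, was 1074 with DESeq2, 1363 and 1353 with limma on log2(FPKM + 1) and log2(FPKM + 0.1) with a mean of at least 1 FPKM, 585 with limma without a filter, and 1551 to 1747 with each sample left out. With total counts only, 1294 calls were higher and 863 lower with si-CNN3#1, where TMM gave 978 and 1133, and limma with log2(FPKM + 1) and the filter gave 799 and 564. With DESeq2 the counts were 4 for other bZIP genes and 3 for feedback inhibitors. With limma, the bZIP count was 6 with either pseudocount, and the immediate-early count was 11 with log2(FPKM + 0.1). Without a filter, limma called 3 bZIP genes, 3 signalling genes, 1 feedback inhibitor, 6 immediate-early genes, 4 AP-1 targets and 7 stress genes. With each sample left out the counts ran from 5 to 10 (bZIP), 3 to 5 (signalling), 3 to 6 (feedback), 14 to 17 (immediate-early), 7 to 8 (AP-1 targets) and 9 to 11 (stress genes). Apart from the smaller number of samples in the last fits, the cause was not tested. The replicate block gave 2727 calls over all genes and 7 of the 10 AP-1 genes, FOS being the added one. The deviations of same-numbered samples correlated at 0.01 to 0.03 (Pearson's r), and each sample correlated best with its own number. Between samples of unlike number the correlations ran from -0.0268 to -0.000801. Such small values do not settle whether same-numbered assays were paired, and the sources used here do not say. With the block, 7 signalling genes and 7 feedback inhibitors were called. With the GENCODE exon lengths FOSL2 made up 61.9% and 62.2% of the FOS genes with si-CNN3#1 and si-NC. Depth limits FOSB and BATF3, each with at most 61 counts.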

Other observations

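Several early response genes outside the naming rule rose as well and were picked here after their values were seen. They come from the list of early response genes in which 11 rose and 6 fell, with a median log2 fold change of 0.04. The genes of that list that fell outside the naming rule are not named here, so no common direction is read from these. CCN1, a secreted matrix protein, had a log2 fold change of 0.52 (SE 0.03 and adjusted p = 9.42e-18 by the quasi-likelihood test of edgeR), the growth arrest gene GADD45A one of 0.44 (SE 0.06 and adjusted p = 3.26e-08), KLF6 one of 0.36 (SE 0.05 and adjusted p = 6.21e-07) and KLF10 one of 0.35 (SE 0.04 and adjusted p = 3.55e-10). PPP1R15A, a phosphatase subunit that reverses eIF2α phosphorylation, rose by 0.30 (SE 0.04 and adjusted p = 2.83e-07, same test). Among the AP-1 targets the laminin gene LAMB3 rose by 0.25 (SE 0.05 and adjusted p = 0.000294), while TIMP1 had -0.0047 (SE 0.03 and adjusted p = 0.944) and CCND1 0.04 (SE 0.13 and adjusted p = 0.882).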
